A study of Mus musculus with 9 samples.

Results

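The arginine methyltransferases are the enzymes that methylate arginine in histones and other proteins, and Carm1 is the member that methylates the histone H3 residue named in the genotype H3R17H. Members were chosen by symbol: Carm1, Prmt1, Prmt2, Prmt3, Prmt5, Prmt6, Prmt7 and Prmt9, 8 of 16070 listed genes. All 8 reached 1 FPKM in at least 3 libraries, the minimum for testing, as did 11850 genes in all. FPKM scales a gene's fragments to its length and to the library's mapped total, so levels can be set against each other between genes.

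RNA was measured in C57BL/6 mouse embryos grown in culture and collected 4.5 days after microinjection, in 9 libraries of 3 each. The first group is titled WT, with wild type as its genotype. The second is titled H3R17H, a substitution of that arginine by histidine, and the third Carm1-/-, loss of the enzyme; the series title gives CRISPR-Cas9 editing as the means. All groups share strain, culture and age, the WT embryos being labelled by time after microinjection too. The labels name both embryos and a single cell as the source, and do not say how many embryos or which injected agents stand behind a library. The p-values therefore measure the spread between these libraries, which may be technical in part. In the edited groups this spread also spans libraries with and without Y-linked transcripts, as given below. Sample descriptions and column names contradict the titles of both edited groups: libraries titled H3R17H are called Carm there, and those titled Carm1-/- are called Hist. Groups are given below by title, as the library labelled H3R17H or labelled Carm1-/-, and every direction refers to that label.

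As background, these enzymes take the methyl group from S-adenosylmethionine. Type I members (Carm1, Prmt1, Prmt2, Prmt3 and Prmt6) make asymmetric dimethylarginine, type II members (Prmt5 and Prmt9) make symmetric dimethylarginine, and Prmt7 makes monomethylarginine. In the mouse embryo, CARM1 is known for methylating histone H3 in cleavage-stage blastomeres and for favouring the inner cell mass, and PRMT5 for keeping pluripotent cells and germ cells alive.

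In the WT embryos Prmt1 was the most abundant member and Prmt6 the least. Mean WT levels were 160.4 ± 77.5 FPKM for Prmt1, 68.6 ± 15.4 for Prmt5, 57.04 ± 11.4 for Prmt7 and 17.4 ± 3.85 for Prmt3 (SD, n = 3). They were 7.53 ± 1.17 FPKM for Carm1, 5.15 ± 0.403 for Prmt9, 3.98 ± 0.779 for Prmt2 and 2.03 ± 0.858 for Prmt6. The ranges of Prmt5 and Prmt7 overlapped, and no other neighbours in this order overlapped over the 3 WT libraries. By WT mean, Prmt1 lay above 94.6% of the tested genes, Carm1 above 55.1% and Prmt6 above 25.8%. Prmt1, Prmt5 and Prmt7 held ranks 1, 2 and 3 in each of the 9 libraries, while the order of the lower members varied. Carm1 had rank 5 in every WT library, ranks 8, 7 and 8 in the libraries labelled H3R17H and ranks 6, 5 and 6 in those labelled Carm1-/-.

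**Figure D1:**
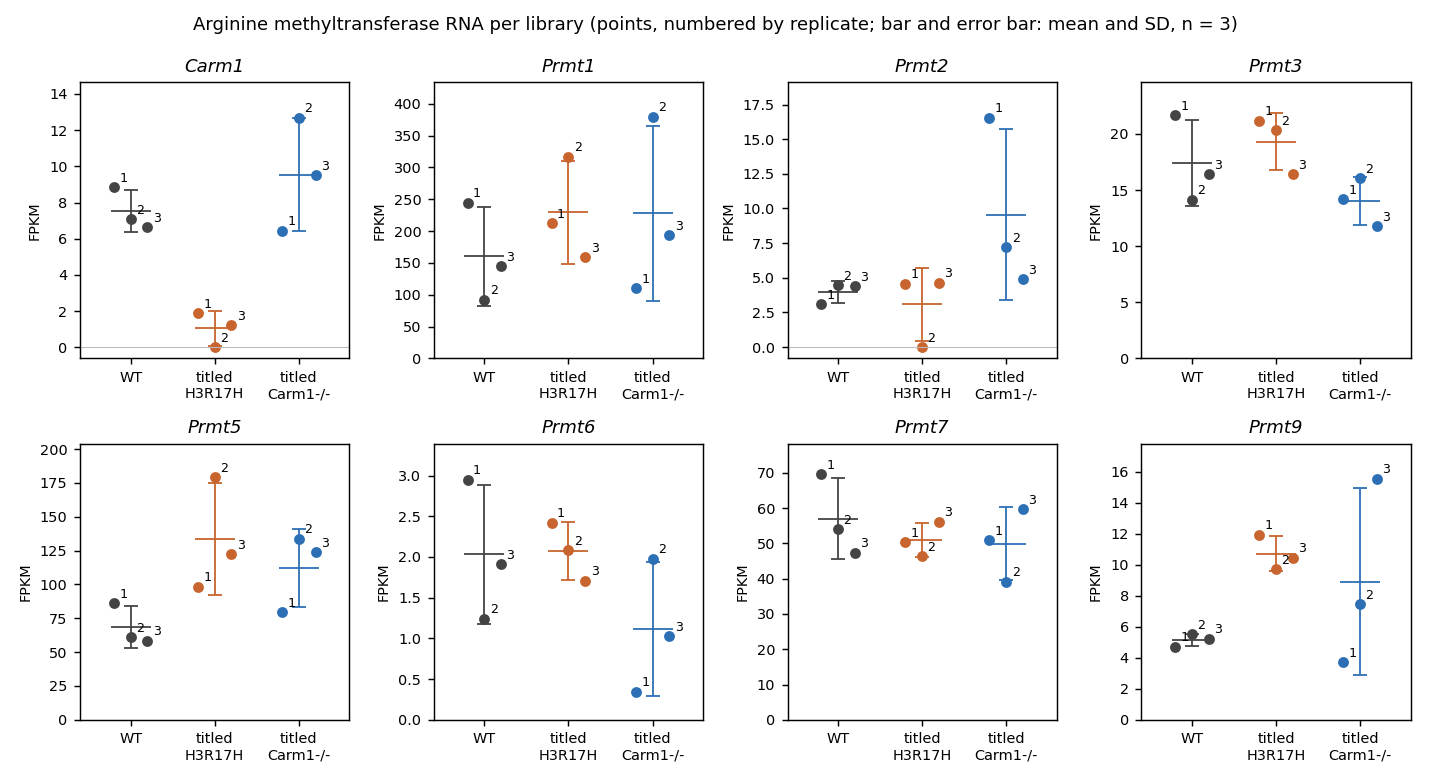
FPKM of each arginine methyltransferase gene (y axis, separate scale per gene, 0 included) in the 3 groups by title (x axis), with points numbered by replicate and the mean and SD of 3 libraries. Carm1 lies between 0.021 and 1.88 FPKM for the label H3R17H and reaches 6.44 FPKM or more in the other 6 libraries.

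Carm1 was lower in the libraries labelled H3R17H than in every other library. The level of its RNA does not give the genotype, and which label is right was not tested. WT replicates 1 to 3 held 8.86, 7.08 and 6.65 FPKM of Carm1, against 1.88, 0.021 and 1.22 FPKM where the label was H3R17H, and 6.44, 12.68 and 9.52 FPKM where the label was Carm1-/-. The libraries labelled H3R17H did not overlap with either of the other groups, and WT overlapped with those labelled Carm1-/-. The mean labelled H3R17H was 0.138 of the WT mean, and the mean labelled Carm1-/- was 1.27 times it. In limma, the difference of log2(FPKM + 1) was -2.18 (95% interval -3.11 to -1.25, adjusted p = 0.169) for H3R17H vs WT. The limma difference was 0.27 (-0.66 to 1.2, adjusted p = 0.829) for Carm1-/- vs WT and 2.45 (1.52 to 3.39, adjusted p = 0.15) for Carm1-/- vs H3R17H. None passed the threshold of 0.05 over all tested genes. The exact two-sided permutation test gave p = 0.1 for both comparisons with the libraries labelled H3R17H, the smallest that 3 against 3 libraries allow.

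Among all 11850 tested genes, 0.405% had a lower difference than Carm1 in H3R17H vs WT. With array quality weights, Carm1 passed (-2.08, limma adjusted p = 0.0285), as did 1.62% of all tested genes. With only the compared groups in the fit it passed too (-2.18, limma adjusted p = 0.0396; 2.03% of all genes), and likewise without replicate 1 labelled Carm1-/- (-2.18, limma adjusted p = 0.045; 1.05%). A pseudocount of 0.1 or 5 in place of 1 gave -3.47 and -1.06, neither of which passed.

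Carm1 lies on the plus strand at chr9:21546894-21592623 (GRCm38). Its exons share 1025 bases, 21.1% of its exon sequence, with Yipf2 on the opposite strand. Whether the authors counted by strand is not given in the sources used here, so reads of the pair cannot be told apart in that stretch. Yipf2 was at 39.4, 26.7 and 16.7 FPKM in the WT libraries, at 30.0, 26.8 and 19.5 where the label was H3R17H, and at 32.4, 3.35 and 23.3 where it was Carm1-/-. Yipf2 thus overlapped between WT and the libraries labelled H3R17H, where Carm1 did not. Raver1, on the same chromosome, had a listed FPKM of 0 in each library labelled Carm1-/-, against 3.68 to 8.12 FPKM in the other 6.

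Y-linked transcripts and lineage markers varied between libraries beside Carm1. The 4 Y-linked genes (Kdm5d, Uty, Ddx3y, Eif2s3y) summed to 30.7 to 35.7 FPKM in the WT libraries, and to more than 1 FPKM in replicate 1 alone of each edited group. The library labelled H3R17H with Y-linked transcripts, replicate 1, held Carm1 at 1.88 FPKM, below all 3 WT libraries, which also have them. It was unlike those WT libraries in Xist, the RNA of X inactivation, at 4.84 FPKM against 0.187 to 0.427 FPKM in WT. Replicates 2 and 3 of that label held 28.2 and 16.6 FPKM of Xist. Where the label was Carm1-/-, Xist was at 0.259, 32.5 and 18.9 FPKM. With a term for Y-linked transcripts the Carm1 difference in H3R17H vs WT was -2.10 (limma, adjusted p = 0.561). The 12 trophectoderm markers, genes of the outer layer of the blastocyst, summed to 5690 to 8710 FPKM in the WT libraries, 1650 to 4650 where the label was H3R17H and 2090 to 9170 where it was Carm1-/-. In the last group replicate 1 held the 9170, and the other libraries were at 2610 or less. Krt18 and Krt8 weigh most in these sums, with means of 3300 and 2510 FPKM in WT. Their means were 1230 and 1080 where the label was H3R17H, and 2180 and 1980 where it was Carm1-/-. Tead4 had means of 27.0, 29.0 and 25.9 FPKM in WT, H3R17H and Carm1-/-. Tfap2c was higher on average where the label was H3R17H than in WT, with overlapping ranges. Of the 11 tested trophectoderm markers, 9 were lower in H3R17H vs WT and 10 in Carm1-/- vs WT, with medians of -1.44 and -1.28. In limma 0 were called, with 6 and 4 at an unadjusted p under 0.05 (14.2% and 11.4% of all tested genes). Dppa1 and Id2 passed as lower in H3R17H vs WT under the 3 alternatives in which Carm1 passed. Xist passed as higher under the same 3. With array quality weights, and with only the compared groups in the fit, Tdgf1 (epiblast) and Pdgfra (primitive endoderm) passed as lower too. Without replicate 1 labelled Carm1-/-, 5 trophectoderm markers passed as lower in Carm1-/- vs WT (Cdx2, Gata2, Gata3, Id2 and Tfap2a), against 4.63% of all tested genes. In that fit Dab2, of the primitive endoderm list, passed as lower too, and Xist and the oocyte markers Zp2 and Zp3 passed as higher. None of the 12 trophectoderm markers was at 0 in all libraries of a group. The part of lineage in the values of the methyltransferases was not tested, and fewer cells of a type cannot be told apart from less RNA per cell in such libraries.

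For the other type I members, no comparison passed the threshold. Prmt1, the main asymmetric arginine methyltransferase of cells (minus strand, chr7:44975989-44986568), had the largest SD in FPKM of the 8 members in each group, at the highest level. It was at 244.5, 91.9 and 144.9 FPKM in the WT libraries, at 212.3, 317.0 and 158.6 where the label was H3R17H, and at 110.1, 379.4 and 193.9 where it was Carm1-/-. All 3 groups overlapped. Differences from WT were 0.57 (95% interval -0.47 to 1.6, limma adjusted p = 0.602) in H3R17H and 0.44 (-0.6 to 1.47, adjusted p = 0.741) in Carm1-/-, and both intervals run well to either side of 0. Without replicate 2 labelled Carm1-/- the second difference turned to -0.02.

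Prmt2, a weakly active type I member and nuclear receptor coactivator (minus strand, chr10:76207222-76237865), was set apart by single libraries. It was at 3.08, 4.47 and 4.39 FPKM in the WT libraries. Where the label was H3R17H it was at 4.57, 0.007 and 4.65 FPKM, so replicate 2, the library with the least Carm1, also held almost no Prmt2. Where the label was Carm1-/- it was at 16.54, 7.20 and 4.88 FPKM, all above WT. The difference in Carm1-/- vs WT was 0.94 (95% interval -0.50 to 2.37, limma adjusted p = 0.585), and in Carm1-/- vs H3R17H 1.58 (0.14 to 3.02, adjusted p = 0.572). In H3R17H vs WT it was -0.64 (limma adjusted p = 0.676), and 0.18 without replicate 2.

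Prmt3, which methylates ribosomal protein S2 in the cytosol (plus strand, chr7:49778346-49858265), varied least of the type I members relative to its mean. It was at 21.6, 14.1 and 16.4 FPKM in the WT libraries, at 21.2, 20.4 and 16.4 where the label was H3R17H, and at 14.2, 16.1 and 11.8 where it was Carm1-/-. The libraries labelled Carm1-/- lay below those labelled H3R17H, by a narrow margin between 16.06 and 16.39 FPKM, with a difference of -0.44 (95% interval -1.02 to 0.14, limma adjusted p = 0.733). Prmt6, a nuclear enzyme that methylates histone H3 and restrains other activating marks (minus strand, chr3:110246109-110250998), was at 0.343 to 2.94 FPKM in all 9 libraries. It was lowest in replicate 1 labelled Carm1-/-. Its differences from WT were 0.05 in H3R17H and -0.55 in Carm1-/- (limma, adjusted p = 0.966 and 0.584). Of the exon sequence of Prmt6, 23.4% overlaps with an antisense transcript, so its low values cannot be assigned to a strand.

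Both type II members were higher in all 3 libraries labelled H3R17H than in any WT library, as were 13.3% of all tested genes. Prmt5, the main symmetric methyltransferase, which acts on histones and spliceosomal Sm proteins (minus strand, chr14:54507187-54517525), was at 86.2, 61.0 and 58.5 FPKM in the WT libraries. It was at 98.5, 179.1 and 122.5 FPKM where the label was H3R17H and at 79.4, 133.9 and 123.7 FPKM where it was Carm1-/-. The second of these groups overlapped with WT through replicate 1. Means were 1.94 and 1.64 times that of WT. The differences from WT were 0.93 (95% interval 0.28 to 1.57, limma adjusted p = 0.247) in H3R17H and 0.69 (0.04 to 1.34, adjusted p = 0.41) in Carm1-/-. Neither passed. Over the 20 alternatives the adjusted p ranged from 0.0725 to 0.75 for the first and from 0.0903 to 0.993 for the second, and the direction was the same throughout.

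Wdr77, the obligate partner of PRMT5 in the methylosome, had ranges that overlapped between all groups. It was at 85.4, 68.4 and 64.0 FPKM in the WT libraries, at 90.9, 54.4 and 86.3 where the label was H3R17H, and at 46.4, 72.6 and 61.2 where it was Carm1-/-. The FPKM of Prmt5 divided by that of Wdr77 was 1.01, 0.891 and 0.915 in WT. It was 1.08, 3.29 and 1.42 where the label was H3R17H, and 1.71, 1.85 and 2.02 where it was Carm1-/-. All 6 edited libraries lay above WT in this ratio, on which no test was run.

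Prmt9, which symmetrically methylates the splicing factor SF3B2 (plus strand, chr8:77549397-77581338), had the tightest WT values of the family, 4.72, 5.51 and 5.23 FPKM. It was at 11.94, 9.73 and 10.45 FPKM where the label was H3R17H, all above WT and with a spread almost as narrow. Where the label was Carm1-/- it was at 3.71, 7.47 and 15.56 FPKM, from below to far above WT. The mean labelled H3R17H was 2.08 times that of WT, a difference of 0.93 (95% interval 0.01 to 1.84, limma adjusted p = 0.35), and Carm1-/- vs WT gave 0.50 (-0.41 to 1.42, adjusted p = 0.648). For Prmt5 and Prmt9 in H3R17H vs WT the exact two-sided permutation p was 0.1 each. With a term for Y-linked transcripts the adjusted p was 0.75 for Prmt5 and 0.839 for Prmt9 in that comparison.

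The windows upstream of Prmt5 and Prmt9 are shown because these 2 members were higher than WT in the same 3 libraries, and that of Prmt1 because its level followed Prmt5 over the libraries. Each is the stretch of 250 bases before the RefSeq transcript start (GRCm38.p6), 5′ to 3′ on the strand of the gene. Capitals mark matches on either strand. The motifs searched were GGGCGG for the GC box, CCAAT for the box of that name, TATAAA for the TATA-type box, CACGTG for the E box, CCGGAAG for the ETS site, GCGCATGC for the NRF1-type site and TGACGTCA for the cyclic AMP response element, and their matches do not overlap in these windows. The last motif was added to the search after the window of Prmt9 had been seen.
Prmt5, chr14:54517471-54517720, minus strand: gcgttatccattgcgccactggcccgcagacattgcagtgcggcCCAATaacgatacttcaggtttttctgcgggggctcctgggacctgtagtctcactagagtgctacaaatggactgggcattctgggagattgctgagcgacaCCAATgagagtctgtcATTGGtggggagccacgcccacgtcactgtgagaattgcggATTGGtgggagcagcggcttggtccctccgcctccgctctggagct
Prmt9, chr8:77549147-77549396, plus strand: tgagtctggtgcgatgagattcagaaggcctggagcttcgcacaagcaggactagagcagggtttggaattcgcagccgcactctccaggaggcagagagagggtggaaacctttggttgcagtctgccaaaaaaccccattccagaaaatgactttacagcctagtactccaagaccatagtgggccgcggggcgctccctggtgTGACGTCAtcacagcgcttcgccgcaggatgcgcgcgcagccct
Prmt1, chr7:44986421-44986670, minus strand: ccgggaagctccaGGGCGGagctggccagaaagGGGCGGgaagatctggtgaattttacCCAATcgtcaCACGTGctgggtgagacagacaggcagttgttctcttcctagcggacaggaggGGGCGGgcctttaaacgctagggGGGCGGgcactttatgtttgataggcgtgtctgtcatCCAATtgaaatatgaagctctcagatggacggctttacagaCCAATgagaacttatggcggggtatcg

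The Prmt5 window held 4 CCAAT boxes and none of the other motifs, and that of Prmt1 held 3 CCAAT boxes, 4 GC boxes and 1 E box. The Prmt9 window held a single match, the cyclic AMP response element at -44 to -37 from the start. Over 32851 windows of this length, 33.8% held a CCAAT box, 32.7% a GC box, 6.02% the E box and 1.55% the response element. These shares count windows with at least 1 match. How many windows hold as many CCAAT boxes as those of Prmt5 and Prmt1 was not computed. GC content was 58.0% for Prmt5, 57.6% for Prmt9 and 54.8% for Prmt1, against a median of 52.4% over all windows. RefSeq windows were at hand for 7 members and not for Carm1.

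Prmt7, the monomethyltransferase (plus strand, chr8:106210936-106252794), varied least over the 9 libraries relative to its mean. It was at 69.6, 54.1 and 47.4 FPKM in the WT libraries, at 50.4, 46.4 and 56.2 where the label was H3R17H, and at 51.0, 39.1 and 59.7 where it was Carm1-/-. All groups overlapped. Its coefficient of variation over all libraries was 16.6%, against 20.4% for Prmt3, 37.2% for Prmt5 and 69.9% for Carm1. The differences from WT were -0.14 (95% interval -0.68 to 0.39) in H3R17H and -0.19 (-0.72 to 0.34) in Carm1-/- (limma, adjusted p = 0.816 and 0.778).

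Counted over the 8 members, no comparison had a gene past the threshold. In H3R17H vs WT limma called 0 of 8, against 0.0% of all tested genes. At an unadjusted p under 0.05 there were 3, Carm1, Prmt5 and Prmt9, against 14.2% of all tested genes. The libraries labelled H3R17H were all higher than WT for 2 members (13.3% of all tested genes) and all lower for 1 (15.6%). In Carm1-/- vs WT limma called 0 of 8 (0.0% of all genes), with 1 at an unadjusted p under 0.05, Prmt5 (11.4%). Prmt2 alone was higher in all 3 libraries labelled Carm1-/- (6.91%), and 0 members were lower in all (9.71%). In Carm1-/- vs H3R17H limma called 0 of 8 (0.0% of all genes), with 2 at an unadjusted p under 0.05, Carm1 and Prmt2 (8.21%). Both were higher in all 3 libraries labelled Carm1-/- (5.13%), and Prmt3 was lower in all (6.07%). These counts are of 8 genes, and none of the shares was tested against those over all genes. The 3 comparisons share libraries, each group entering 2 of them.

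The median difference of the members was 0.10 in H3R17H vs WT, 0.36 in Carm1-/- vs WT and -0.18 in Carm1-/- vs H3R17H. Over all tested genes it was -0.032, -0.042 and -0.011. Without replicate 1 labelled Carm1-/-, 4 members, Carm1, Prmt2, Prmt5 and Prmt9, were higher than WT in both libraries left of that label, against 19.6% of all tested genes. Replicate 1 was the lowest of its group for Carm1, Prmt1, Prmt5, Prmt6 and Prmt9.

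**Figure D2:**
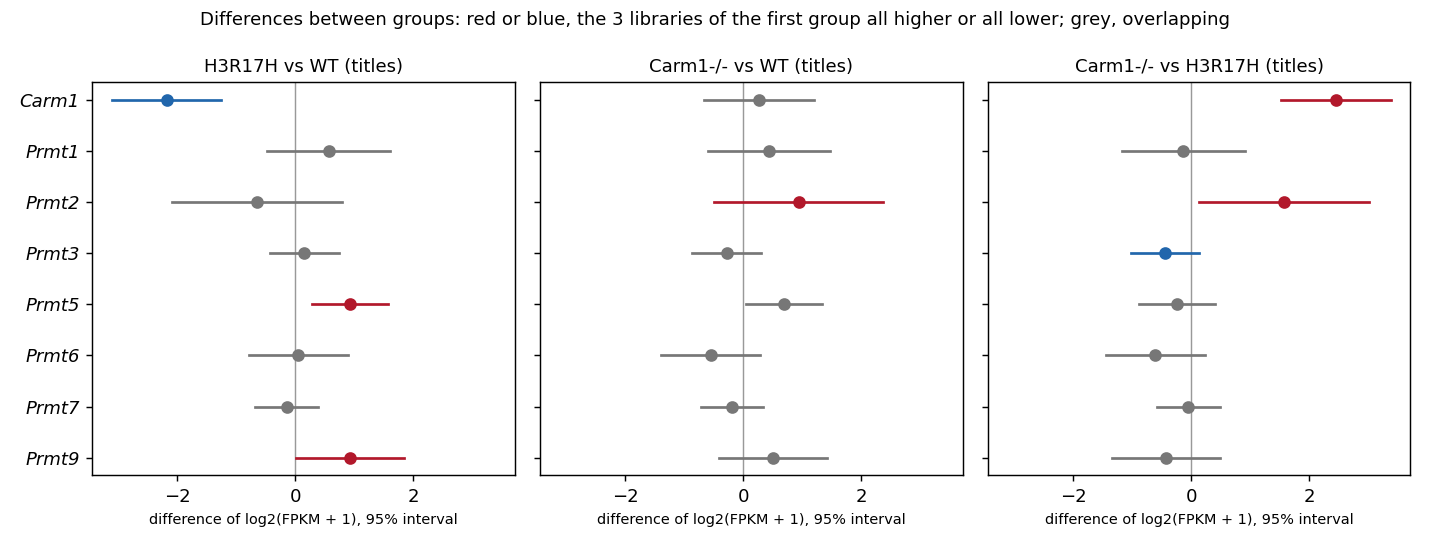
Difference of log2(FPKM + 1) for each member (points) with its 95% interval from limma (lines), for the 3 comparisons by title. Red marks members higher, and blue lower, in all 3 libraries of the first group; Carm1 lies at -2.18 in H3R17H vs WT and at 2.45 in Carm1-/- vs H3R17H, and intervals are not adjusted for the number of genes.

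As a share of the summed FPKM of the 8 genes, Prmt1 and Prmt5 made up most of the family in every library. Prmt1 took 38.4% to 55.4% in WT, 42.7% to 55.2% where the label was H3R17H and 39.1% to 63.5% where it was Carm1-/-. Prmt5 took 19.5% to 25.5%, 24.4% to 32.9% and 22.4% to 29.5%. Carm1 took 2.01%, 2.96% and 2.33% in WT, and 2.28%, 2.12% and 2.26% where the label was Carm1-/-. Its share ran from 2.01% to 2.96% in these 6 libraries, while its FPKM ran from 6.44 to 12.68. The share also depends on the other members: WT replicate 1 had the most Carm1 of the WT libraries, 8.86 FPKM, but the lowest share, with Prmt1 at 55.4%. Where the label was H3R17H, Carm1 took 0.465%, 0.00374% and 0.329%. Prmt7 took 8.07% in replicate 2 labelled H3R17H and 6.54% in replicate 2 labelled Carm1-/-, and 12.5% or more elsewhere, and these 2 libraries had the highest sums, 574.7 and 597.8 FPKM.

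**Figure D3:**
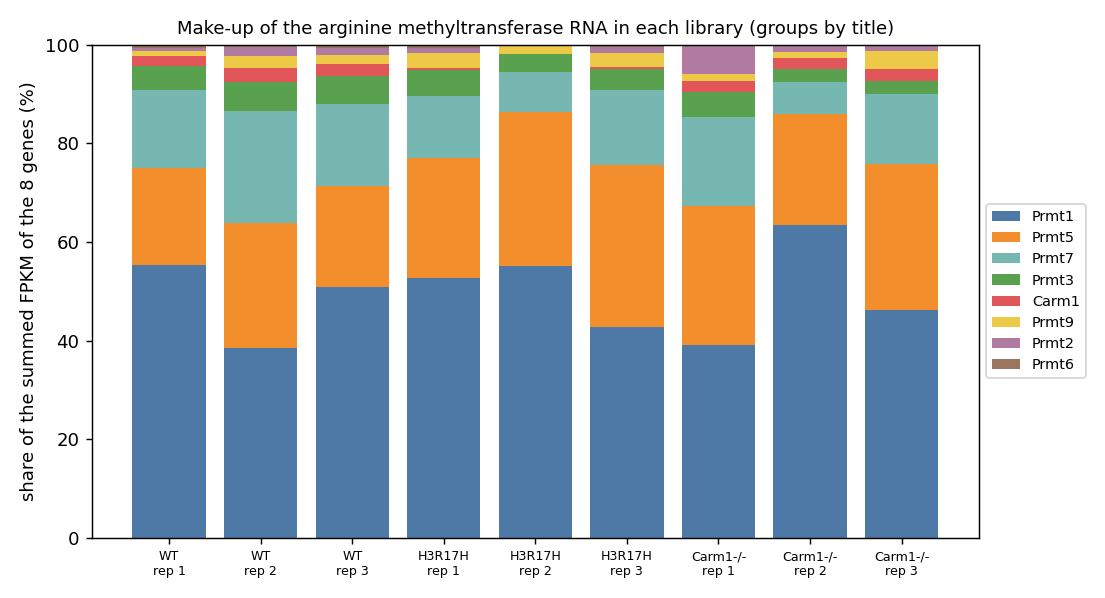
Share of the summed FPKM of the 8 genes (y axis, percent) taken by each gene in each library (x axis, group by title and replicate). The band of Carm1 is 2.01% to 2.96% in the 6 libraries titled WT or Carm1-/- and at most 0.465% in those titled H3R17H.

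Members varied with each other in part. Over the 9 libraries, as a description without a test, Pearson's r of log2(FPKM + 1) was 0.79 for Prmt3 with Prmt6 (Spearman's rho 0.90) and 0.76 for Prmt1 with Prmt5 (rho 0.78), the highest of 28 pairs. It was 0.66 for Carm1 with Prmt2, but rho was 0.33, and both genes are near 0 in replicate 2 labelled H3R17H. Carm1 with Prmt5 gave -0.49 (rho -0.07). These points share libraries and their scaling, and group differences enter each value.

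Among 5996 other tested genes with a mean of at least 5 FPKM, leaving out predicted gene models, microRNA genes and repeated symbols, the pattern of Carm1 was most like that of Hsp90b1, a chaperone of the endoplasmic reticulum (r = 0.946, rho 0.92), Tle6, a gene of the maternal complex of the oocyte cortex (r = 0.944), and Rgn, Zcchc7 and Ercc1 (r = 0.938, 0.93 and 0.922). Tmem127, Cct8 and Lamp1 were most opposite (r = -0.938, -0.916 and -0.912). The libraries labelled H3R17H make up much of this likeness. Over the 6 libraries titled WT or Carm1-/-, r was 0.62 for Hsp90b1, 0.81 for Tle6, 0.58 for Rgn, 0.08 for Zcchc7 and 0.31 for Ercc1. Hsp90b1 was at 191 to 229 FPKM in the WT libraries, 77.2 to 138 where the label was H3R17H and 184 to 278 where it was Carm1-/-.

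Prmt5 had a closer counterpart than any other member. Rnmt, which methylates the guanosine cap of messenger RNA, put the 9 libraries in the same order as Prmt5 (r = 0.995, rho 1.0). Rnmt was at 15.2, 12.9 and 12.7 FPKM in the WT libraries, at 15.4, 19.7 and 16.9 where the label was H3R17H, and at 14.7, 18.0 and 17.0 where it was Carm1-/-. Over the 6 libraries titled WT or Carm1-/- its r with Prmt5 was 0.99. Among the nearest genes to other members were Atp6v1e1 for Prmt2 (r = 0.967), Uap1 for Prmt9 (0.96), Aimp1 for Prmt6 (0.946), Tm7sf3 for Prmt7 (0.922) and Cst3 for Prmt3 (0.909). Each is the highest of 5996 values, and no test was run on them.

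**Figure D4:**
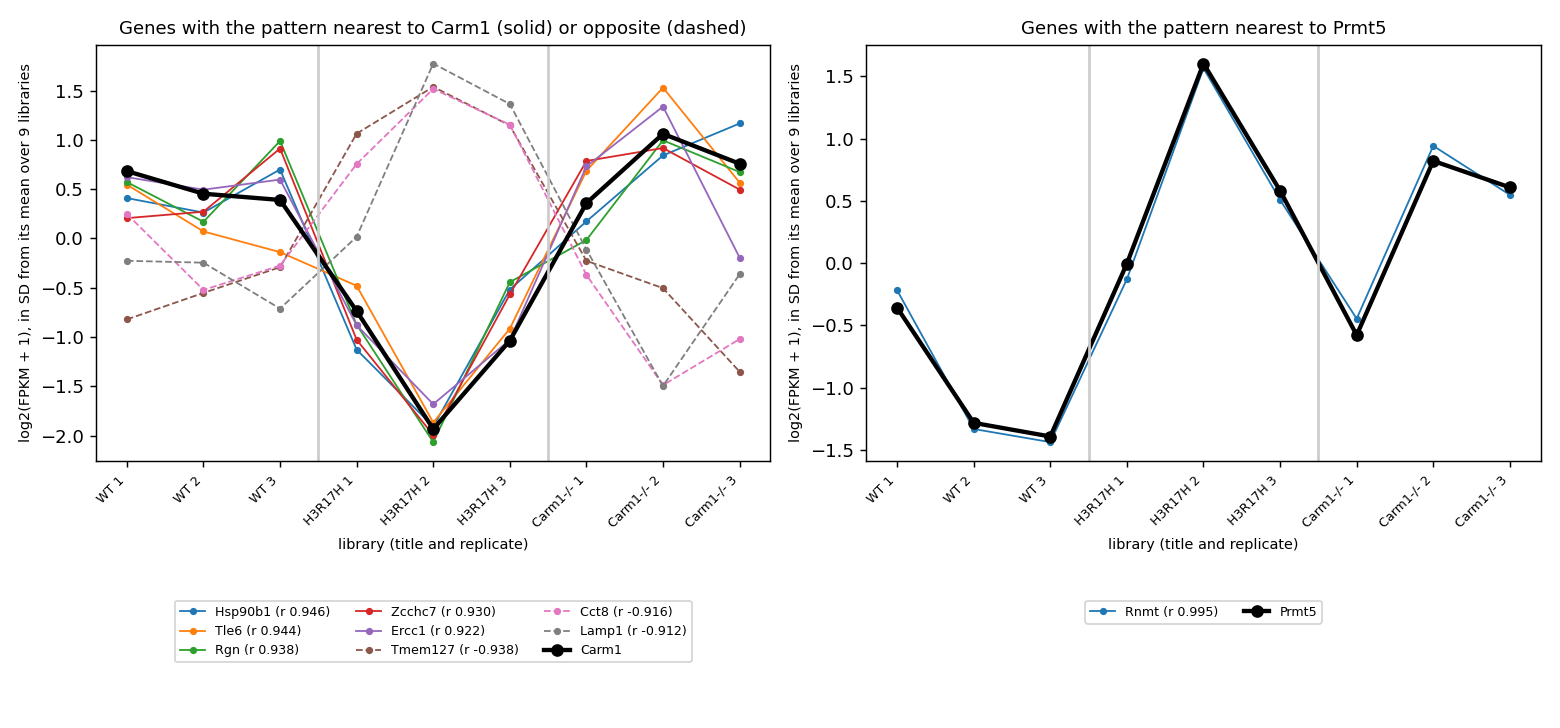
log2(FPKM + 1) of Carm1 (left) and Prmt5 (right) in SD from the mean over 9 libraries (y axis), with the genes of the most alike (solid) and most opposite (dashed) pattern, by library (x axis). Rnmt follows Prmt5 in every library, with r = 0.995.

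Genes around the methyltransferases were read from lists of cofactors, substrates, readers, erasers and methyl donors, and 0 of their members passed in any of the 3 comparisons (limma, adjusted p over all tested genes). Of 12 tested cofactors and regulators 10 were higher in H3R17H vs WT, with a median of 0.19 and 1 at an unadjusted p under 0.05. In Carm1-/- vs WT 6 were higher, with a median of 0.02 and 1 at that p. Over all tested genes 47.7% were higher in H3R17H vs WT and 46.3% in Carm1-/- vs WT. An unadjusted limma p under 0.05 was reached by 14.2% and 11.4% of all tested genes. None of the list counts was tested against these shares. Btg2, an antiproliferative protein that binds PRMT1, was at 25.0, 38.1 and 22.9 FPKM in the WT libraries. It was at 39.0, 173 and 57.6 where the label was H3R17H and at 89.6, 189 and 69.4 where it was Carm1-/-, above WT in all 6 (differences 1.36 and 1.88, limma adjusted p = 0.305 and 0.266). Coprs, which ties PRMT5 to chromatin, averaged 33.9 ± 9.51 FPKM in the WT libraries, 48.2 ± 5.28 labelled H3R17H and 31.4 ± 8.53 labelled Carm1-/- (SD, n = 3).

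Of 23 tested partners and substrates of CARM1, 14 were lower in H3R17H vs WT, with a median of -0.12. There were 2 at an unadjusted limma p under 0.05 (14.2% of all tested genes). In Carm1-/- vs WT 15 were lower, with a median of -0.04 and 2 at that p (11.4% of all tested genes). The libraries labelled H3R17H were all below WT for 7 of the 23 (15.6% of all tested genes) and all above for 1 (13.3%). Mdh1, cytosolic malate dehydrogenase, a known CARM1 substrate, was at 122, 111 and 137 FPKM in the WT libraries and at 67.9, 60.7 and 76.3 where the label was H3R17H. It was at 99.8, 56.2 and 76.1 where the label was Carm1-/-, below WT in all 6 (differences -0.84 and -0.70, limma adjusted p = 0.23 and 0.336). Among 31 tested RNA-binding proteins that PRMT1 or PRMT5 methylates, or that work with them, 18 were lower in H3R17H vs WT and 20 in Carm1-/- vs WT, with medians of -0.12 and -0.13. At an unadjusted limma p under 0.05 there were 4 and 3 (14.2% and 11.4% of all tested genes). Snrpd3, an Sm protein that PRMT5 methylates, was at 32.5, 33.1 and 38.0 FPKM in the WT libraries and at 41.6 or more in all 6 edited libraries (differences 0.58 and 0.49, limma adjusted p = 0.301 and 0.428).

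The methyl donor is made by methionine adenosyltransferase, and Mat2a, the form of most tissues, was at 125, 141 and 110 FPKM in the WT libraries. It was at 252, 265 and 172 where the label was H3R17H, all above WT, and at 146, 213 and 141 where it was Carm1-/- (differences from WT 0.85 in H3R17H, limma adjusted p = 0.23). Ahcy, which removes the product that inhibits methyltransferases, averaged 33.8 ± 11.1 FPKM in the WT libraries, 32.9 ± 2.93 labelled H3R17H and 18.6 ± 4.33 labelled Carm1-/- (SD, n = 3). Of 27 tested genes of this supply and use, 17 were higher in H3R17H vs WT (median 0.12) and 14 in Carm1-/- vs WT (median 0.04). There were 4 and 2 at an unadjusted limma p under 0.05 (14.2% and 11.4% of all tested genes). Pemt, a phosphatidylethanolamine methyltransferase of this list, passed in H3R17H vs WT under the same 3 alternatives as Carm1. It was at 206, 109 and 83.2 FPKM in the WT libraries and at 550, 542 and 350 where the label was H3R17H.

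Free asymmetric dimethylarginine, released when methylated proteins are broken down, is cleared by the enzymes of Ddah1 and Ddah2. Ddah1 was at 156, 188 and 170 FPKM in the WT libraries, at 58.0, 36.9 and 132 where the label was H3R17H, and at 106, 59.8 and 68.1 where it was Carm1-/-. All 6 edited libraries lay below WT, with differences of -1.37 and -1.17 (limma, adjusted p = 0.237 and 0.336). Without replicate 1 labelled Carm1-/-, 4.63% of all tested genes passed in Carm1-/- vs WT, and with them Ncoa1 and Tfeb (lower) and Jmjd6 and Pemt (higher) of these lists. Ddah2, at a far lower level than Ddah1, was at 2.54 to 3.40 FPKM in the WT libraries and at 5.23 to 7.16 FPKM where the label was Carm1-/- (difference 0.77, limma adjusted p = 0.403).

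The 9 libraries each had 10566 to 11005 genes at 1 FPKM or more. Pearson's r of log2(FPKM + 1) between libraries of a group was 0.957 to 0.968 in WT, 0.932 to 0.942 for the label H3R17H and 0.853 to 0.905 for the label Carm1-/-. The deposited values hold no counts, so the depth behind each level is unknown. Epiblast markers summed to 194 to 272 FPKM in WT, 207 to 237 for the label H3R17H and 144 to 294 for the label Carm1-/-. Of the 10 tested, 7 were lower and 3 higher in H3R17H vs WT, with a median of -0.5. In Carm1-/- vs WT 6 were lower and 4 higher, with a median of -0.14. At an unadjusted limma p under 0.05 there were 2 and 1 (14.2% and 11.4% of all tested genes).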

How the data were processed

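RNA of cultured mouse embryos was sequenced in 9 libraries, 3 per group. The authors deposited FPKM values for 16070 genes; per the submitters' processing notes, Bowtie 0.12.2 and the build GRCm38 (mm10) were used, while no source used here gives the quantifier, annotation or strand setting. Groups follow the titles. No counts were at hand, low values are not multiples of one read, so depth is unknown, intervals reflect only the spread between libraries, and the number of libraries limits the precision.

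The 11850 genes that reached 1 FPKM in 3 or more libraries were tested on log2(FPKM + 1), a scale that understates the change of low genes, with limma 3.58.1 (R 4.3.3; trend, all 9 libraries in one fit), p-values adjusted by Benjamini-Hochberg across the tested genes, and 0.05 as the threshold. The script was tested on simulated data. Exact two-sided permutation tests were run for single genes. Promoters are RefSeq windows (GRCm38.p6) and positions are from GENCODE (GRCm38). Alternatives changed the pseudocount, filter, scaling, weights, samples in the fit, replicate block and a term for Y-linked transcripts, or left out each library.

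All members are named. From each gene list up to 3 tested genes with the smallest unadjusted p per comparison could be named, and from the likeness search the 5 highest and 3 lowest for Carm1 and the highest for each other member, of which 1 is not reported here; Wdr77, Yipf2 and Raver1 were chosen as partner, overlapping gene and neighbour. Genes that passed only under an alternative, Ncoa1 among them, were named after their values were seen. So were Krt8, Krt18, Tead4 and Tfap2c, to show the make-up of the trophectoderm list. The members and lists were chosen with earlier results of these data known. A comparison of the proteins was not made.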

Additional observations from a re-analysis of the deposited data

How the results depend on the processing

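The number of members past the threshold in H3R17H vs WT was 0, and 1 (Carm1) with array quality weights (Carm1 -2.08), in a fit of the compared groups alone (-2.18) and when replicate 1 labelled Carm1-/- was omitted, giving 0 to 1 members when each library was left out and -2.49 to -1.75 for Carm1. The cause was not tested. Over all genes the calls in that comparison were 0, against 192, 240 and 125. In Carm1-/- vs WT they were 0, and 549 without replicate 1 labelled Carm1-/-. Carm1 had 60 alternative values over the 3 comparisons, of which 0 reversed. The other members had 417, of which 14 reversed and 0 passed. With a term for Y-linked transcripts, Prmt2 (0.21) and Prmt6 (-0.16) reversed in H3R17H vs WT and Prmt1 (-0.02) in Carm1-/- vs WT; with array quality weights Prmt7 (0.04) did in Carm1-/- vs H3R17H. Leaving out each library gave ranges that cross 0 in H3R17H vs WT for Prmt2 (-1.06 to 0.18), Prmt6 (-0.15 to 0.26) and Prmt7 (-0.27 to 0.01). The same held in Carm1-/- vs WT for Prmt1 (-0.02 to 0.87), and in Carm1-/- vs H3R17H for Prmt1 (-0.59 to 0.3), Prmt7 (-0.18 to 0.12) and Prmt9 (-0.89 to 0.02). Replicate numbers are shared by the groups. Deviations from the group means had r from -0.0501 to 0.183 between same-numbered libraries, and from -0.247 to 0.274 between the others. Replicate 1 alone held Y-linked transcripts in both edited groups (36.6 FPKM labelled H3R17H, 28.1 labelled Carm1-/-). Whether same-numbered libraries share more than a number was not tested. With the replicate block Carm1 was -2.18 in H3R17H vs WT, 0.27 in Carm1-/- vs WT and 2.45 in Carm1-/- vs H3R17H (limma adjusted p = 0.202, 0.844 and 0.364), and 0 genes were called in each. Prmt6 had no value with a mean of at least 5 FPKM.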

Other observations

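Readers and erasers of methylarginine, and relatives of the enzymes, were also measured, and 0 of them passed in any comparison (limma, adjusted p over all tested genes). At an unadjusted limma p under 0.05 there were 2 in H3R17H vs WT, 1 in Carm1-/- vs WT and 0 in Carm1-/- vs H3R17H. Over all tested genes the shares at that p were 14.2%, 11.4% and 8.21%. Tdrd9, a Tudor-domain helicase of the germline, was listed at 0, 0 and 0.408 FPKM for the WT replicates, at 3.2, 4.58 and 1.26 for the label H3R17H and at 0, 1.71 and 2.62 for the label Carm1-/-. It was thus above WT in each library labelled H3R17H (difference 1.74, limma adjusted p = 0.237). Jmjd6, a hydroxylase also described as an arginine demethylase, had 27.4 to 30.0 FPKM in WT and 49.2 to 56.4 for the label H3R17H (0.87, limma adjusted p = 0.299), while the libraries labelled Carm1-/- held 27.0, 71.7 and 61.1. Padi6, of the deiminase family and known from the oocyte, had 1.26 to 1.68 FPKM in WT and 2.93 to 5.58 for the label H3R17H (1.0, limma adjusted p = 0.395).

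The relatives Mettl23, Ndufaf7 and Fbxo11 overlapped between all groups. Mettl23, which methylates arginine of histone H3 in the oocyte, averaged 16.5 ± 5.1 FPKM in WT, 20.9 ± 5.46 for the label H3R17H and 17.1 ± 5.5 for the label Carm1-/- (SD, n = 3). Primitive endoderm markers summed to 166 to 217 FPKM in WT, 140 to 175 for the label H3R17H and 85.7 to 176 for the label Carm1-/-. Dab2 weighs most in these sums, with means of 140, 103 and 70.8 FPKM. The members split: of 7 tested, 2 were higher and 5 lower in H3R17H vs WT. Gata6 averaged 26.5 FPKM in WT and 45.3 for the label H3R17H, while Pdgfra averaged 8.19 and 0.961 and Sox17 6.1 and 0.27.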
